A study of Homo sapiens with 18 samples.

Results

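The genes described here are 10 enzymes of the aldo-keto reductase and hydroxysteroid dehydrogenase families and steroid sulfatase: AKR1C1, AKR1C2, AKR1C3, AKR1B1, AKR1B10, HSD17B2, HSD17B4, HSD17B8, HSD17B12 and STS. They were chosen by name with log2 differences between the groups of these same arrays already known, that of AKR1C3 between the lines among them, and every probe that the platform annotation gives one of these symbols was taken, led for each gene by the probe with the highest mean over the 18 arrays. A probe was found for 9 of the 10 genes, AKR1B1 being the exception, and these 9 genes had 15 of the 47231 probes. Of these, 8 probes of 7 genes passed a filter on dim probes, which asked for 3 or more arrays with a value over the array median.

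Expression was measured on Illumina bead arrays in 2 cell lines, each under 3 treatments with 3 arrays. Hec-1A is an established line from an endometrial adenocarcinoma, and RL95-2 is an established line from an adenosquamous endometrial carcinoma. Each line was treated with PDGF-AA + 3G3, with PDGF-AA, or with control IgG, the antibody control. PDGF-AA is a homodimeric platelet-derived growth factor that binds PDGF receptor alpha, and 3G3 is known as an antibody that blocks that receptor, whose blockade is the subject of the study. No antibody is named for the PDGF-AA group, so the effect of PDGF-AA and the absence of control IgG cannot be told apart. The sources used here give no dose or duration. Each line is a single line, and nothing says that the 3 arrays of a group came from separate cultures, so the tests measure the spread between arrays, which may be technical.

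Values were the authors' processed log2 signals, whose median was 6.64 on every array, and a level near that median was taken as dim because no detection p-values were used. In the raw table the array medians ran from 89.1 to 105 units and single probes reached 22228 units. The number of arrays, 3 in each group, limits the precision. Over all probes past the filter, the median 95% half-width of a comparison between treatments within a line was 0.162 on the log2 scale. The intervals of AKR1C2, AKR1C3, HSD17B4, HSD17B8 and HSD17B12 were wider, and those of HSD17B2 and STS were narrower. For AKR1C3 the interval was -0.17 to 0.49 for PDGF-AA + 3G3 against control IgG in Hec-1A. All 6 epithelial markers were above the array median in both lines, with a summed log2 level of 13.82 to 14.27 on Hec-1A arrays and 13.84 to 14.26 on RL95-2 arrays. Means above the median were also found for 2 of 4 leukocyte markers in Hec-1A and 1 in RL95-2, for 1 of 3 endothelial markers in each line, and for 2 of 5 stromal markers in each line. PTPRC, CD3E and VWF, defining leukocyte and endothelial genes, had means below the median in both lines. In contrast, CDH5 averaged 7.23 and COL1A1 7.26 in RL95-2, and LYZ averaged 6.85 in Hec-1A and 6.83 in RL95-2. The part of such genes in the results was not tested. One array stood apart: Hec-1A control IgG replicate 1 correlated at 0.945 to 0.976 with the other Hec-1A arrays, while all other pairs within a line reached at least 0.982 and no pair between lines exceeded 0.93. Member results that rest on this array are given with and without it.

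Steroid-metabolising enzymes set how much active hormone reaches a receptor inside a cell. Reductive enzymes such as AKR1C3 form testosterone and oestradiol from weaker precursors, and oxidative enzymes such as HSD17B2 turn them back into androstenedione and estrone. In endometrium HSD17B2 is known as an enzyme of the secretory phase, when progesterone raises it and oestradiol is inactivated. AKR1C1 and AKR1C2 inactivate progesterone and dihydrotestosterone, and STS frees estrone and dehydroepiandrosterone from their sulfates. Several HSD17B members act mainly on fatty acids: HSD17B4 in peroxisomal beta-oxidation, HSD17B8 in mitochondrial fatty acid synthesis and HSD17B12 in the elongation of very long chain fatty acids.

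AKR1C1, AKR1C2 and AKR1C3 lie in 1 cluster on chromosome 10, and their promoters are shown because their leading probes gave different patterns on the arrays. Whether the 3 genes themselves differ in this way was not tested. The windows hold the 250 bases before the annotated start, from RefSeq on GRCh38.p14, a table that gave a window for 7 of the 10 genes. AKR1C1 lies at chr10:4963165-4963414 on the + strand, AKR1C2 at chr10:5003858-5004107 on the - strand and AKR1C3 at chr10:5048531-5048780 on the + strand. Capitals mark ATTGG, which is an inverted CCAAT box, and TATAAA, the TATA box letters, both searched on both strands and not overlapping here.
AKR1C1: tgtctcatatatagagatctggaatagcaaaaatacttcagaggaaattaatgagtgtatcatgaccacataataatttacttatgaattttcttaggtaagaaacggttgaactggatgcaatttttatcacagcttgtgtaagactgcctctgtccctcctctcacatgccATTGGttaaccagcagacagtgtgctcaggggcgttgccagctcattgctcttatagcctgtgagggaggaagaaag
AKR1C2: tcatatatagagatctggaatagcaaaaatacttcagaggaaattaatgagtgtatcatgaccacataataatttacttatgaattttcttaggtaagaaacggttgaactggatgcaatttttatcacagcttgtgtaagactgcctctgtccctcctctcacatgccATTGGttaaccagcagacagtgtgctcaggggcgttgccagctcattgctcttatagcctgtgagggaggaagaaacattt
AKR1C3: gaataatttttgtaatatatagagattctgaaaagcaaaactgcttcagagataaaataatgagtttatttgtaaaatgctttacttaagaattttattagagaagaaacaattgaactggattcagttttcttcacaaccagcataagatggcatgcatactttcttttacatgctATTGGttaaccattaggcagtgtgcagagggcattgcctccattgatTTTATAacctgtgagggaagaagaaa
The AKR1C1 and AKR1C2 windows were identical at 245 of 246 aligned bases (99.6%), against 185 of 241 (76.8%) for AKR1C1 with AKR1C3 and 183 of 237 (77.2%) for AKR1C2 with AKR1C3. The ATTGG letters began at position -77 of AKR1C1, -81 of AKR1C2 and -73 of AKR1C3, counted from the start. TATAAA was found in the AKR1C3 window alone of these 3, on the reverse strand, with its first base at -26. The table holds a second AKR1C3 window, at another annotated start and not shown, with ATTGG at -86 and no TATAAA. The core letters of the antioxidant response element, TGACNNNGC, were in none of the 3 windows. Over all 35116 promoter windows of this length, 32% held ATTGG, 10.7% held TATAAA and 10.9% held TGACNNNGC, and a match describes the letters only.

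AKR1C3 was high on all Hec-1A arrays and low on all RL95-2 arrays. AKR1C3 reduces androstenedione to testosterone and also makes prostaglandins of the F series. In Hec-1A, the AKR1C3 probe ILMN_1713124 had log2 signals of 11.85, 12.00 and 11.61 under PDGF-AA + 3G3, 12.07, 11.72 and 11.81 under PDGF-AA, and 11.25, 11.78 and 11.94 under control IgG. In RL95-2 it had 7.59, 7.43 and 7.23 under PDGF-AA + 3G3, 7.42, 7.52 and 7.69 under PDGF-AA, and 7.28, 7.49 and 7.51 under control IgG. The lowest Hec-1A array, control IgG replicate 1, lay far above the highest RL95-2 array, so the lines did not overlap under any treatment. The mean was 11.78 ± 0.25 in Hec-1A and 7.46 ± 0.14 in RL95-2 (SD, n = 9 each), a difference of 4.32 or 19.9-fold, and 4.38 without the array that stands apart. In raw units the Hec-1A signals ran from 3014 to 4314 and the RL95-2 signals from 145 to 191.

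AKR1C2 was bright by 1 of its 6 probes and was moderately higher in Hec-1A by that probe. The AKR1C2 probe ILMN_2412336 had log2 signals of 10.03, 10.10 and 9.95 under PDGF-AA + 3G3, 10.07, 9.98 and 10.07 under PDGF-AA, and 9.34, 10.08 and 10.02 under control IgG in Hec-1A. In RL95-2 it had 9.37, 9.12 and 9.12 under PDGF-AA + 3G3, 9.24, 9.19 and 9.39 under PDGF-AA, and 9.18, 9.05 and 9.23 under control IgG. The lines overlapped only through Hec-1A control IgG replicate 1, and the other 8 Hec-1A arrays were all above the 9 RL95-2 arrays. The mean was 9.96 ± 0.24 in Hec-1A and 9.21 ± 0.11 in RL95-2 (SD, n = 9 each), a difference of 0.75, which was 0.83 without that array.

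The other 5 AKR1C2 probes, ILMN_1719154, ILMN_1668617, ILMN_1773417, ILMN_3237488 and ILMN_1730191, did not follow it. Their 90 values lay between 6.36 and 6.69, of which 84 were at or below the array median, so the probes of this symbol disagreed. The single AKR1C1 probe, ILMN_1662507, was dim in the same way, at 6.36 to 6.63 on Hec-1A arrays and 6.36 to 6.64 on RL95-2 arrays. AKR1C1 inactivates progesterone. No order between lines or treatments can be read from values at this level. The genes of this cluster are near-identical in sequence, the probe sequences were not analysed here, and whether a probe also takes signal from a neighbouring AKR1C gene was not tested.

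AKR1C4, a mainly hepatic relative in the same cluster, was outside the 10 genes and showed the same split among its probes. Its probe ILMN_1687757 averaged 10.48 ± 0.20 in Hec-1A and 8.05 ± 0.11 in RL95-2 (SD, n = 9 each), and its probe ILMN_1668880 was dim, at 6.55 and 6.51. Under control IgG the first AKR1C4 probe was higher in Hec-1A by 2.36 ± 0.12 (SE), with a limma adjusted p of 1.82e-10. AKR1C4 was listed with earlier results of these data known, so this p is descriptive.

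**Figure D1:**
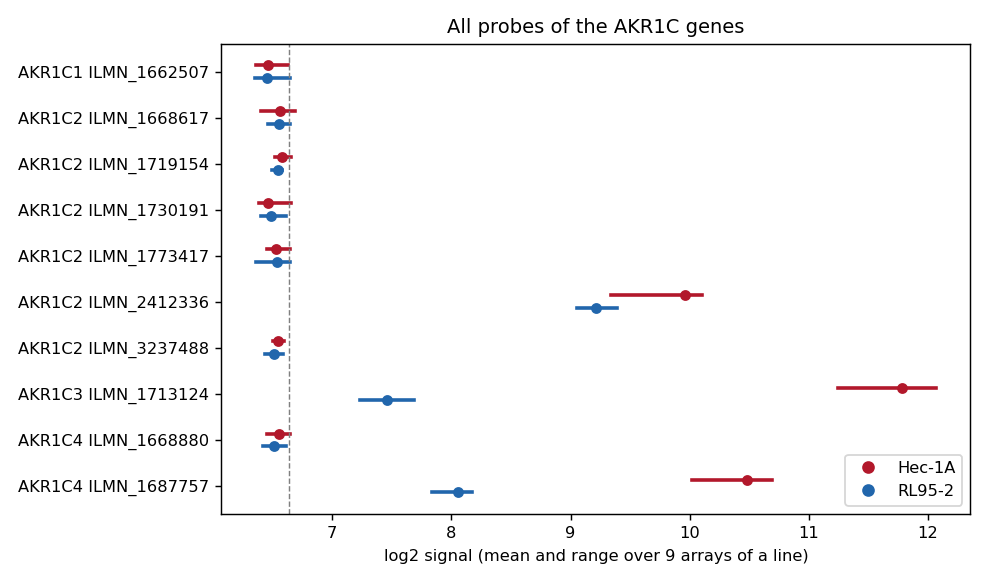
All probes of the AKR1C genes, with log2 signal on the x axis, a point for the mean and a line for the range over the 9 arrays of a line, and the array median of 6.64 dashed. AKR1C3 and 1 probe each of AKR1C2 and AKR1C4 lie right of the median and higher in Hec-1A, and the other probes sit around the median in both lines.

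AKR1B10, a reductase of retinal and lipid aldehydes, was dim throughout. Its probe ILMN_1672148 had log2 signals of 6.46 to 6.65 in Hec-1A and 6.38 to 6.63 in RL95-2, with the ranges overlapping. AKR1B1, the aldose reductase that also makes prostaglandins of the F series in endometrium, has no value here because no probe carries its symbol in the annotation used.

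HSD17B2 ran opposite to AKR1C3, with no signal above the array median on any Hec-1A array and a strong signal on every RL95-2 array. Its probe ILMN_1808713 had log2 signals of 6.49, 6.54 and 6.49 under PDGF-AA + 3G3, 6.47, 6.37 and 6.56 under PDGF-AA, and 6.55, 6.52 and 6.48 under control IgG in Hec-1A. In RL95-2 it had 10.40, 10.53 and 10.52 under PDGF-AA + 3G3, 10.28, 10.21 and 10.05 under PDGF-AA, and 10.14, 10.18 and 10.14 under control IgG. The Hec-1A arrays were all dim, so HSD17B2 passed the filter through RL95-2 and its fold is a bound. With Hec-1A arrays set at the median, HSD17B2 was at least 12.4-fold lower in Hec-1A, and the measured means were 6.50 ± 0.06 in Hec-1A and 10.27 ± 0.17 in RL95-2 (SD, n = 9 each). Because this is a bound, the gaps of HSD17B2 and AKR1C3 have no set order.

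HSD17B12, the ketoacyl reductase of fatty acid elongation, was bright in both lines and higher in Hec-1A by both of its probes. The leading HSD17B12 probe, ILMN_2094106, had log2 signals of 12.10, 12.40 and 12.13 under PDGF-AA + 3G3, 12.22, 12.47 and 12.20 under PDGF-AA, and 13.22, 12.43 and 12.68 under control IgG in Hec-1A. In RL95-2 it had 11.86, 11.57 and 11.46 under PDGF-AA + 3G3, 11.54, 11.86 and 11.88 under PDGF-AA, and 11.62, 11.87 and 11.80 under control IgG. Every Hec-1A array was above every RL95-2 array. The difference of the line means was 0.71 (12.43 ± 0.35 in Hec-1A and 11.72 ± 0.17 in RL95-2, SD, n = 9 each), and 0.61 without Hec-1A control IgG replicate 1. The other HSD17B12 probe, ILMN_1702168, gave a difference of 1.08, from 11.14 ± 0.31 in Hec-1A and 10.06 ± 0.15 in RL95-2, also without overlap.

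HSD17B4, the bifunctional enzyme of peroxisomal beta-oxidation, was higher in Hec-1A, and more so under control IgG than under the other treatments. Its probe ILMN_1673795 had log2 signals of 10.01, 9.98 and 10.06 under PDGF-AA + 3G3, 9.82, 10.20 and 9.85 under PDGF-AA, and 10.90, 10.18 and 10.46 under control IgG in Hec-1A. In RL95-2 it had 9.68, 9.82 and 9.71 under PDGF-AA + 3G3, 9.78, 9.62 and 9.65 under PDGF-AA, and 9.42, 9.46 and 9.36 under control IgG. The lines overlapped over all 18 arrays by 1 Hec-1A array, at 9.82, but not within any treatment. How many of all probes do so was not counted, and 23% of all genes tested were called higher in Hec-1A under control IgG. The gap was 0.27 under PDGF-AA + 3G3, 0.27 under PDGF-AA and 1.10 under control IgG, and the last was 0.91 without Hec-1A control IgG replicate 1.

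HSD17B8, which with CBR4 forms the ketoacyl reductase of mitochondrial fatty acid synthesis, was lower in Hec-1A under control IgG but not under the other treatments. Its probe ILMN_1715324 had log2 signals of 8.67, 8.80 and 8.75 under PDGF-AA + 3G3, 8.85, 8.34 and 8.81 under PDGF-AA, and 7.63, 8.38 and 8.32 under control IgG in Hec-1A. In RL95-2 it had 8.66, 8.61 and 8.56 under PDGF-AA + 3G3, 8.36, 8.57 and 8.44 under PDGF-AA, and 8.88, 8.79 and 8.99 under control IgG. Under control IgG all Hec-1A arrays were below all RL95-2 arrays, by 0.77 on average, and by 0.53 without Hec-1A control IgG replicate 1, which was the lowest of all 18. The share of all probes separated in this way within a treatment was not counted. Of all genes tested, 23.2% were called lower in Hec-1A under control IgG. Under PDGF-AA the ranges overlapped, and under PDGF-AA + 3G3 Hec-1A was the higher line by 0.13.

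STS, the sulfatase that frees steroids from their sulfates, stayed close to the array median in every group. Its probe ILMN_1778956 ranged over 6.60 to 6.86 on Hec-1A arrays and 6.62 to 6.83 on RL95-2 arrays, with means of 6.70 and 6.69. The sign of its difference between lines changed with single arrays and settings.

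**Figure D2:**
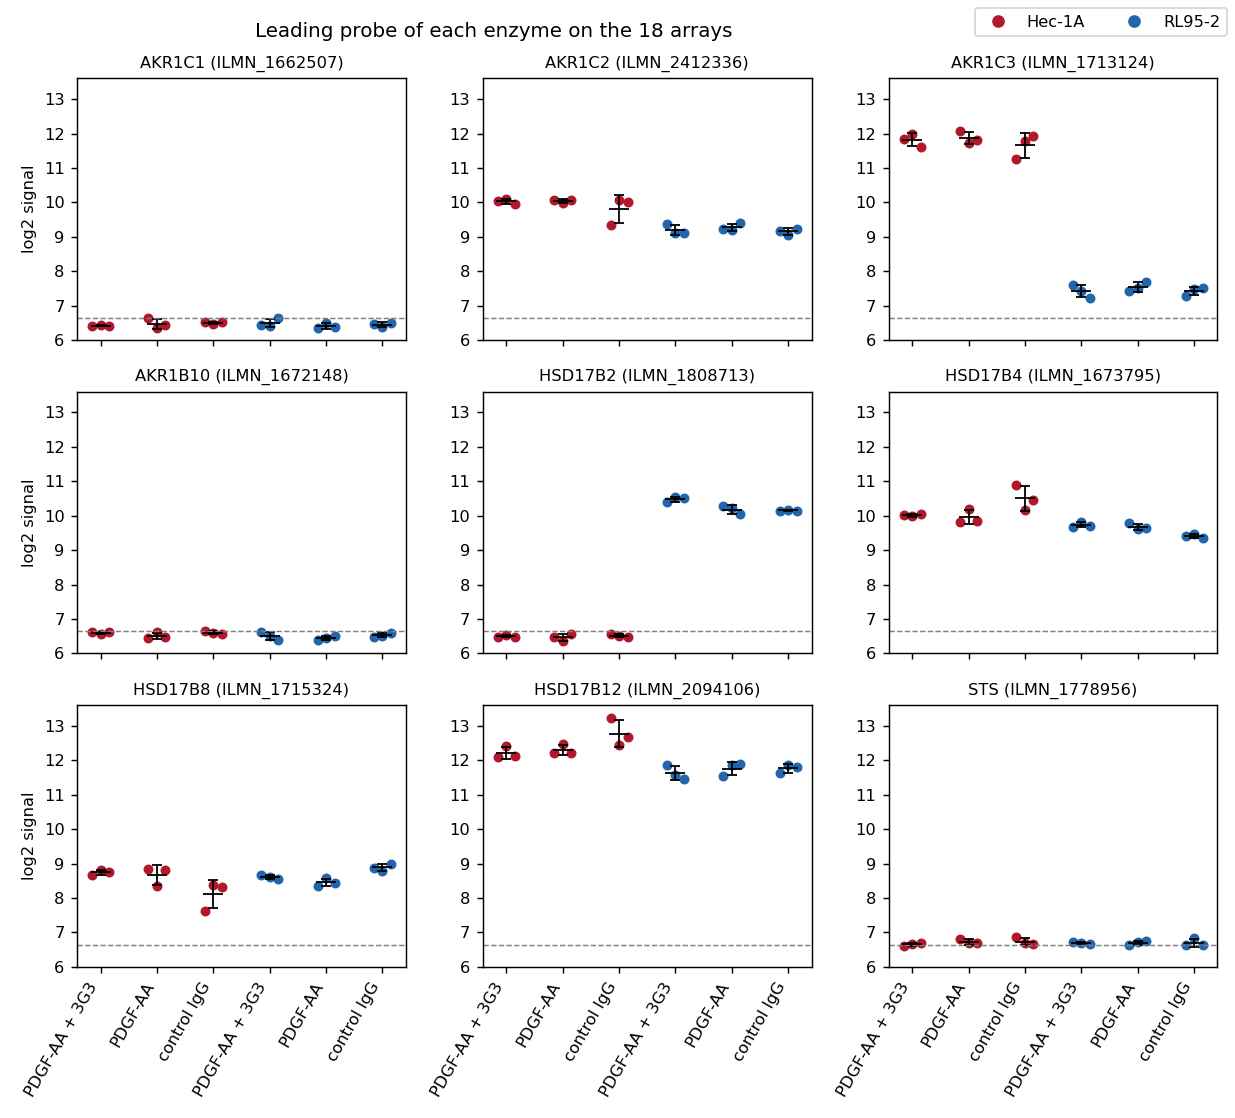
Log2 signal of the leading probe of the 9 measured enzymes, 1 point per array, with the mean and SD of each group of 3 and the array median of 6.64 dashed. AKR1C3 is near 12 in Hec-1A and 7.5 in RL95-2, HSD17B2 is below the median in Hec-1A and above 10 in RL95-2, and AKR1C1, AKR1B10 and STS lie around the median.

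The members did not share a direction between the lines. Of the 7 genes past the filter, AKR1C3 and HSD17B12 had all 9 Hec-1A arrays above all 9 RL95-2 arrays, a pattern held by 9.89% of all 32070 probes past the filter. HSD17B2 had all 9 Hec-1A arrays below, as did 10.3% of those probes. Because the genes were named with these values in view, the differences between lines are a description and were not tested.

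**Figure D3:**
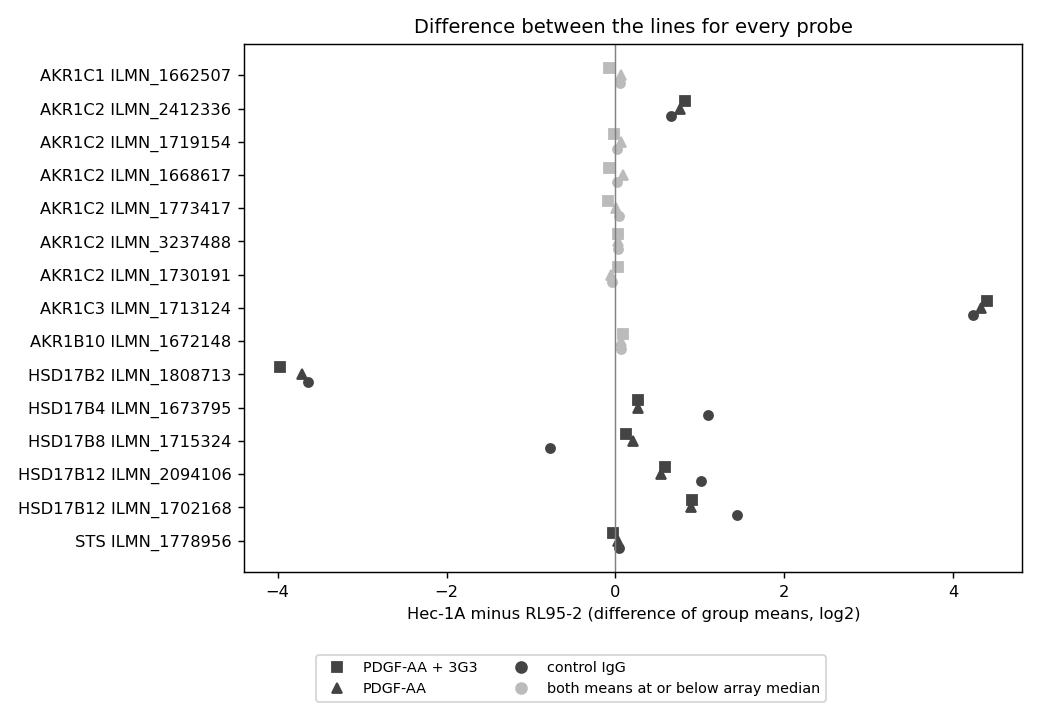
Difference between the group means of Hec-1A and RL95-2 on the log2 scale for all 15 probes, 1 symbol per treatment, with probes at or below the array median in both lines in grey. AKR1C3 lies at 4.23 to 4.40 and HSD17B2 at -3.98 to -3.63 under the 3 treatments, and HSD17B4 and HSD17B8 differ more under control IgG than under the other treatments.

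By closeness of profile over the 18 arrays, the genes most like AKR1C3 among 15322 genes were GPRC5C, CYB5A, TMCO1, HTATIP2 and RRAGA. The measure was the root mean square distance between log2 profiles after each probe's mean was taken off, and it was 0.141 for GPRC5C, an orphan receptor, and 0.152 for CYB5A, the cytochrome b5 that assists steroid-forming P450 enzymes. It was 0.205 for TMCO1, 0.242 for HTATIP2 and 0.247 for RRAGA. All 5 were high in Hec-1A and near the array median in RL95-2, so the likeness rests mostly on the gap between the lines.

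The treatments were compared within each line, in 3 pairs per line whose comparisons share arrays, and by the difference of each comparison between the lines. In these 9 comparisons, none of the 63 values for the 7 member genes passed limma's test at an adjusted p below 0.05 over all 32070 probes. The lowest adjusted p was 0.0664. Across all probes the share called was likewise near 0: 0% for PDGF-AA against control IgG and 0.00312% for PDGF-AA + 3G3 against control IgG in Hec-1A, and 0.00624% and 0% for the same comparisons in RL95-2. For PDGF-AA + 3G3 against PDGF-AA it was 0% in Hec-1A and 0.00312% in RL95-2. For the differences between lines it was 0.00312% for PDGF-AA against control IgG and 0% for the other two. At an unadjusted p below 0.05, 10 of the 42 values within lines passed. In Hec-1A these were 3 of 7 members for PDGF-AA against control IgG, where 21% of all probes passed, and 3 of 7 for PDGF-AA + 3G3 against control IgG, where 20.5% passed. In the same order for RL95-2, 1 of 7 passed against 5.68% of all probes, and 2 of 7 against 9.41%. For PDGF-AA + 3G3 against PDGF-AA, 0 of 7 passed in Hec-1A against 4.08%, and 1 of 7 in RL95-2 against 3.16%. Without Hec-1A control IgG replicate 1, 2 of 7 members passed for PDGF-AA against control IgG in Hec-1A, against 9.28% of all probes, and 3 of 7 for PDGF-AA + 3G3 against control IgG, against 10.5%. In RL95-2, whose spread is estimated jointly with Hec-1A, 2 of 7 (7.82% of all probes) and 3 of 7 (13.5%) then passed in the same order. For the differences between lines, 2 of 7 members passed for PDGF-AA against control IgG (19.9% of all probes), 1 for PDGF-AA + 3G3 against PDGF-AA (2.77%) and 3 for PDGF-AA + 3G3 against control IgG (21.6%). HSD17B2 was that 1 and was among the 3. It was dim on all Hec-1A arrays and passed the filter through RL95-2, so its difference between lines cannot measure a response in Hec-1A.

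HSD17B2 in RL95-2 had the lowest unadjusted p of the members in the comparisons within lines. There the 3 PDGF-AA + 3G3 arrays, at 10.40 to 10.53, lay above the other 6 arrays, at 10.05 to 10.28, a separation not counted over all probes. The mean was higher by 0.33 ± 0.06 (SE) under PDGF-AA + 3G3 than under control IgG, with an unadjusted limma p of 8.21e-05 and an adjusted p of 0.289, and higher by 0.30 ± 0.06 than under PDGF-AA, with 0.000206 and an adjusted p of 1. These did not pass the test over all probes, and 9.41% and 3.16% of all probes had an unadjusted p below 0.05 in these comparisons. In Hec-1A, where HSD17B2 was dim, the corresponding difference from control IgG was -0.01 ± 0.06.

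With all arrays used, HSD17B4, HSD17B8 and HSD17B12 had the largest treatment differences among the members, in Hec-1A against control IgG. HSD17B4 was lower by 0.50 under PDGF-AA + 3G3 (log2 difference -0.50 ± 0.13, SE, limma adjusted p = 0.0724) and by 0.56 under PDGF-AA (-0.56 ± 0.13, adjusted p = 0.109). HSD17B8 was higher by 0.63 ± 0.16 under PDGF-AA + 3G3 (adjusted p = 0.0664) and by 0.55 ± 0.16 under PDGF-AA (adjusted p = 0.11). HSD17B12 differed by -0.56 ± 0.17 (adjusted p = 0.0843) and -0.48 ± 0.17 (adjusted p = 0.132). None of these passed the threshold.

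Hec-1A control IgG replicate 1 moved with these differences. It deviated from the mean of the other control IgG arrays by 0.58 for HSD17B4, -0.72 for HSD17B8, 0.67 for HSD17B12, -0.62 for AKR1C3 and -0.71 for AKR1C2. When it was left out, the PDGF-AA + 3G3 differences from control IgG were -0.31 for HSD17B4, 0.39 for HSD17B8 and -0.34 for HSD17B12, with limma adjusted p of 0.262, 0.199 and 0.366. The PDGF-AA differences from control IgG were then -0.36 for HSD17B4, 0.31 for HSD17B8 and -0.26 for HSD17B12, with limma adjusted p of 0.328, 0.423 and 0.571. Over all probes the share with an unadjusted p below 0.05 for PDGF-AA + 3G3 against control IgG was 10.5% without the array, against 20.5% with it.

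In RL95-2, HSD17B4 and HSD17B8 differed from control IgG in the opposite directions. HSD17B4 was higher by 0.33 ± 0.13 under PDGF-AA + 3G3 (adjusted p = 0.493) and by 0.27 ± 0.13 under PDGF-AA (adjusted p = 0.875). Its 3 control IgG arrays were below the other 6 RL95-2 arrays. HSD17B8 differed by -0.28 ± 0.16 (adjusted p = 0.6) and -0.43 ± 0.16 (adjusted p = 0.835), with its 3 control IgG arrays above the other 6. How many of all probes separate 3 arrays from 6 in this way was not counted, so these separations have no baseline. The response of HSD17B4 to PDGF-AA differed between the lines by -0.83 ± 0.19 and that of HSD17B8 by 0.98 ± 0.23, and limma's test of this difference gave an adjusted p of 0.133 for both. These were -0.63 and 0.74 without Hec-1A control IgG replicate 1, both with an adjusted p of 0.173.

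AKR1C3, AKR1C2 and STS showed small treatment differences. For AKR1C3 the PDGF-AA + 3G3 difference from control IgG was 0.16 in Hec-1A (95% interval -0.17 to 0.49) and -0.01 in RL95-2 (-0.34 to 0.32). The Hec-1A difference was -0.04 without control IgG replicate 1. For AKR1C2 the same difference was 0.21 in Hec-1A (-0.09 to 0.51) and 0.05 in RL95-2 (-0.25 to 0.35), and the Hec-1A value was -0.02 without that array. For STS it was -0.08 in Hec-1A (-0.23 to 0.06) and -0.01 in RL95-2 (-0.15 to 0.14). These intervals do not show that the treatments act alike.

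**Figure D4:**
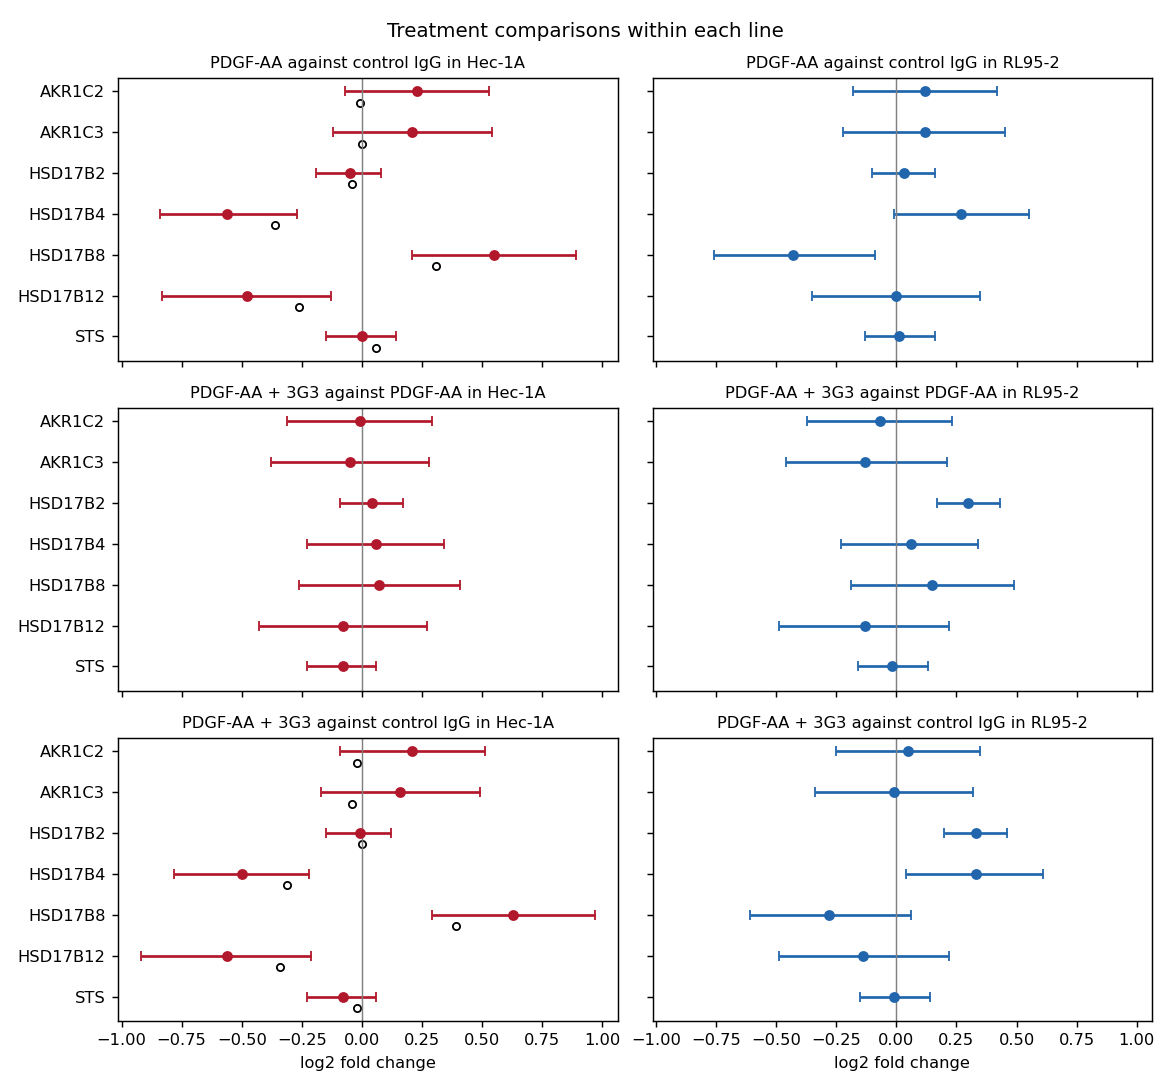
Log2 fold change of 7 enzymes in the 6 comparisons of treatments within a line, with points for the difference of group means, bars for limma's 95% interval, and open circles for the Hec-1A value without control IgG replicate 1. The Hec-1A differences of HSD17B4, HSD17B8 and HSD17B12 from control IgG shrink without that array, and none passed the adjusted test.

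Genes around the members were taken from 11 lists of pathway partners, and their difference between the lines under control IgG was tested with limma over all probes. The lists were chosen with earlier results of these data known, and most genes named from them had the smallest p in this comparison. Their p-values between the lines therefore describe these arrays and are not independent evidence. Of the 147 listed genes, 128 had a probe and 105 passed the filter. Of these 105, 31 were higher and 33 lower in Hec-1A, and their median difference was -0.01. Of all 15322 genes tested, 23% were higher and 23.2% lower, with a median of 0.00. The counts for the lists were 31 and 32 without Hec-1A control IgG replicate 1. No listed gene passed limma's adjusted test in any treatment comparison. At an unadjusted p below 0.05, 33 of 105 passed for PDGF-AA against control IgG in Hec-1A, where 26.2% of all genes tested passed, and 37 for PDGF-AA + 3G3 against control IgG, where 25.5% passed. Without Hec-1A control IgG replicate 1 these were 17, against 10.8% of all genes, and 15, against 12.6%. In RL95-2, 3 passed for PDGF-AA against control IgG, against 6.22% of all genes, and 11 for PDGF-AA + 3G3 against control IgG, against 11.3%. These counts were not tested against those shares.

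Among relatives of the members, HSD17B11, a lipid droplet dehydrogenase, showed a wide gap. It averaged 10.38 ± 0.40 in Hec-1A and 6.62 ± 0.05 in RL95-2 (SD, n = 3 each), at least 13.2-fold higher with RL95-2 set at the array median (limma adjusted p = 3.4e-08). Of 7 other HSD17B genes tested, HSD17B11 was higher, HSD17B6 was lower by 0.22 (difference -0.22, adjusted p = 0.00843) and 5 did not pass. HSD17B1, the enzyme that forms oestradiol from estrone, was near the median at 6.62 in Hec-1A and 6.68 in RL95-2. Of 4 other AKR genes tested, AKR1C4 was higher, and AKR7A2 and AKR7A3, which reduce aldehydes of foreign compounds, differed by -0.87 and -0.65. AKR7A2 did not pass under PDGF-AA + 3G3, at -0.21 (adjusted p = 0.319), or under PDGF-AA, at -0.26 (adjusted p = 0.205), whereas AKR7A3 passed under both, at -0.31 and -0.33.

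Of 12 genes of steroid synthesis, 1 was higher and 3 were lower in Hec-1A. CYB5A averaged 10.45 ± 0.45 in Hec-1A and 6.51 ± 0.03 in RL95-2, at least 14.1-fold higher (adjusted p = 2.23e-12). HSD11B2, which inactivates cortisol, averaged 6.55 ± 0.10 in Hec-1A and 7.32 ± 0.03 in RL95-2, at least 1.61-fold lower in Hec-1A (adjusted p = 2.33e-07). TSPO, a mitochondrial outer membrane protein that binds cholesterol, differed by -0.85 ± 0.19 and POR, the electron donor of microsomal P450 enzymes, by -0.30 ± 0.10. Without Hec-1A control IgG replicate 1, TSPO differed by -0.54 and POR by -0.20 (adjusted p = 0.142), and 2 genes of this list were higher and 2 lower. Neither passed under PDGF-AA + 3G3, with TSPO at -0.17 (adjusted p = 0.602) and POR at 0.18 (adjusted p = 0.209), or under PDGF-AA, with TSPO at -0.15 (adjusted p = 0.665) and POR at 0.11 (adjusted p = 0.502).

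Of 10 genes of steroid and sulfate conjugation, 3 were higher and 3 lower in Hec-1A. The 3 higher were the conjugating enzymes UGT2B17, UGT2B7 and SULT2B1. The 3 lower, SUMF1, SLC35B2 and PAPSS2, do not themselves conjugate steroids. UGT2B17 and UGT2B7, which attach glucuronic acid to androgens and other steroids, were at least 7.76-fold and at least 5.35-fold higher in Hec-1A, with limma adjusted p of 4.67e-15 and 1.14e-10. The UGT2B17 value is that of ILMN_1808677. The other 3 UGT2B17 probes, ILMN_1752214, ILMN_1801263 and ILMN_2373670, were at or below the array median in both lines, with differences over the 9 arrays of a line of 0.01, 0.09 and -0.03, so the probes of this symbol disagreed. The UGT2B genes are close relatives, and whether the probes separate them was not tested. SULT2B1, which sulfates cholesterol and other steroids, averaged 8.34 in Hec-1A and 6.58 in RL95-2, at least 3.24-fold higher. SLC35B2, the Golgi carrier of the sulfate donor, differed by -0.72 ± 0.11.

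Steroid receptors were mostly dim. ESR1 and PGR, the oestrogen and progesterone receptors, were at 6.52 and 6.44 in Hec-1A and at 6.50 and 6.49 in RL95-2 and did not pass the filter. GPER1, a membrane receptor reported to respond to oestradiol, averaged 6.49 ± 0.05 in Hec-1A and 9.14 ± 0.16 in RL95-2, at least 5.68-fold lower in Hec-1A (adjusted p = 2.13e-12). NR3C1, the glucocorticoid receptor, differed by -0.29 ± 0.07.

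In the prostaglandin pathway, which AKR1C3 shares, 3 of 14 genes were higher and 5 lower in Hec-1A. PTGS1, the constitutive cyclooxygenase, averaged 9.44 ± 0.15 in Hec-1A and 6.52 ± 0.04 in RL95-2, at least 6.95-fold higher (adjusted p = 1.28e-14). PTGES, which makes prostaglandin E, averaged 6.75 ± 0.05 in Hec-1A and 9.24 ± 0.09 in RL95-2, a difference of -2.49 (adjusted p = 5.94e-14). PTGER4, a receptor for it, differed by -2.36 ± 0.07 and CBR3, a carbonyl reductase, by -1.44 ± 0.08. The differences of PTGS1, PTGES, PTGER4 and CBR3 also passed under PDGF-AA + 3G3, where 19% of all genes tested were higher and 18.6% lower, and under PDGF-AA, where these shares were 18.8% and 18.2%.

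**Figure D5:**
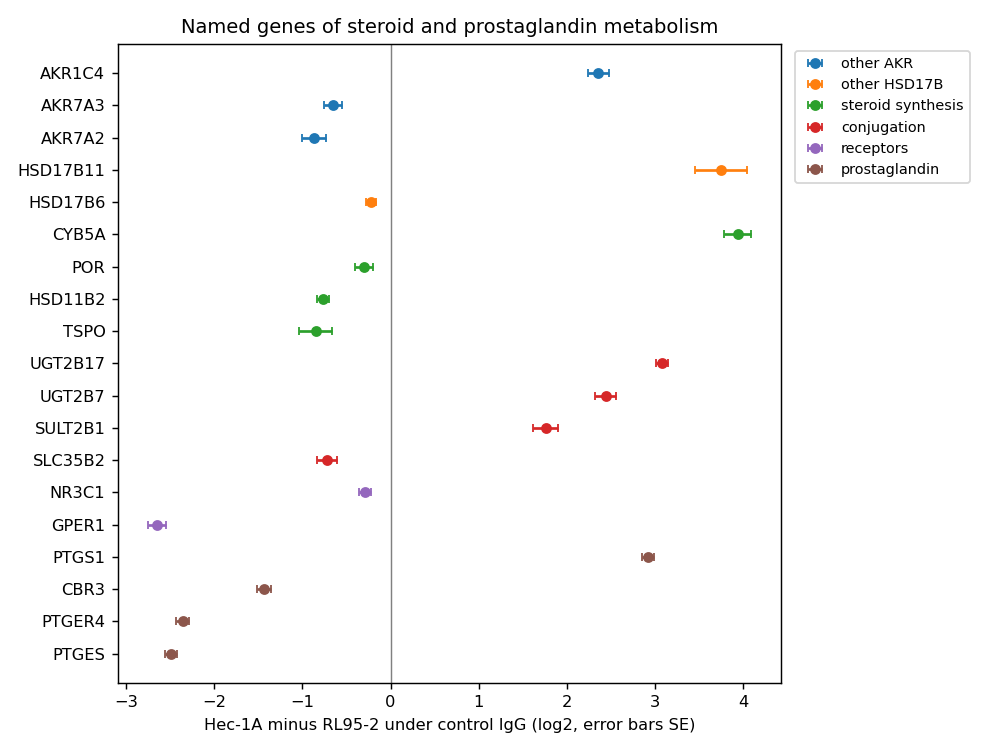
Difference between Hec-1A and RL95-2 under control IgG on the log2 scale (mean and SE, n = 3 each) for the named genes of 6 lists around the members, coloured by list. HSD17B11, CYB5A, UGT2B17 and PTGS1 lie right of 2.9, and GPER1, PTGES and PTGER4 lie at -2.36 or lower.

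The fatty acid partners of the HSD17B members were split between higher and lower. Of 11 peroxisomal genes beside HSD17B4, 3 were higher and 6 lower in Hec-1A: EHHADH, the other bifunctional enzyme, was at least 1.72-fold higher, and ECI2, an enoyl-CoA isomerase, differed by -1.20 ± 0.12. PEX5, the import receptor for peroxisomal enzymes, differed by -0.55 ± 0.05 and AMACR, a racemase of branched fatty acids, by -0.48 ± 0.08. Under PDGF-AA + 3G3 this list had 4 higher and 2 lower, and under PDGF-AA 4 higher and 4 lower. Over all genes tested, 18.6% and 18.2% were lower under these treatments, against 23.2% under control IgG. No gene of the list passed in a treatment comparison or in a difference between lines, so the counts do not show an effect of treatment. AMACR did not pass under PDGF-AA + 3G3, at -0.13 (adjusted p = 0.24), while EHHADH, ECI2 and PEX5 passed under PDGF-AA + 3G3 and under PDGF-AA. Of 12 elongation genes beside HSD17B12, 6 were higher and 2 lower. FADS1, a fatty acid desaturase, was at least 5.05-fold higher, ELOVL6 was higher by 1.36 ± 0.15, HACD2, the dehydratase that follows HSD17B12 in the cycle, was higher by 1.07 ± 0.13, and ELOVL4 was at least 1.69-fold lower. Of 4 mitochondrial synthesis genes beside HSD17B8, CBR4 was higher by 0.80 ± 0.16 and OXSM by 0.39 ± 0.11, and NDUFAB1, the acyl carrier protein, differed by -1.28 ± 0.18. None of these 3 passed under PDGF-AA + 3G3, with CBR4 at 0.04 (adjusted p = 0.919), OXSM at -0.04 (adjusted p = 0.858) and NDUFAB1 at -0.35 (adjusted p = 0.17). Under PDGF-AA only NDUFAB1 of the 3 passed, at -0.58 (adjusted p = 0.0199). Values of list genes are those of the brightest probe, and AKR7A3, HSD17B11, SULT2B1, GPER1, NR3C1, ECI2 and AMACR each also had a probe with means no higher than 6.75 in both lines.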

How the data were processed

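RNA of Hec-1A and RL95-2 cells was labelled with biotin and hybridised to Illumina arrays, per the labels. Deposited were the authors' signal intensity values without normalization, from BeadStudio per the submitters' processing notes (the sources used here give no version), and processed log2 values. The deposited log2 values, used here, differed from a quantile normalization of the intensity table by at most 0.0438. No background subtraction is stated, so low signals compress fold changes.

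A probe was kept if 3 or more of the 18 arrays exceeded the array median of 6.64, which left 32070 of 47231 (67.9%). Of all probes, 30113 carried 1 symbol, 8 several and 17110 none, and Entrez identifiers changed 0 symbols. Limma 3.58.1 in R 4.3.3 fitted 6 group means, with 12 residual and 3.61 prior degrees of freedom, and p-values were adjusted by Benjamini-Hochberg over all kept probes, threshold 0.05. The fit was checked on simulated data. A group mean at or below the median made a fold a bound, computed with arrays raised to the median. Pathway genes were represented by their brightest probe, and of each list the 4 with the smallest p between the lines under control IgG were named. The members and lists were chosen with earlier results of these data known. The files name no genome build. Alternatives covered background, normalization, filter, moderation, array weights, replicate block and single arrays left out.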

Additional observations from a re-analysis of the deposited data

How the results depend on the processing

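Under control IgG, the member differences between lines kept their sign in all 28 alternatives for AKR1C2, AKR1C3, HSD17B2, HSD17B4, HSD17B8 and HSD17B12. The ranges were 4.09 to 4.94 for AKR1C3, -5.35 to -3.61 for HSD17B2, 0.53 to 0.93 for AKR1C2, 0.79 to 1.19 for HSD17B12, 0.91 to 1.30 for HSD17B4 and -0.99 to -0.53 for HSD17B8. STS kept it in 25 of 27. No called value reversed. Without normalization the median of all probes moved by -0.119 for PDGF-AA against control IgG in Hec-1A.

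The count of members past the threshold, 0 in the values reported, was 3 in Hec-1A with array weights for PDGF-AA against control IgG and 3 for PDGF-AA + 3G3 against control IgG, with 2 and 3 for their differences between lines, and 1 in RL95-2 for PDGF-AA + 3G3 against control IgG, where HSD17B2 reached an adjusted p of 0.0359. With array weights, the 3 differences between lines for PDGF-AA + 3G3 against control IgG included HSD17B2, dim in Hec-1A, at a limma adjusted p of 0.014. The filter at the 75th percentile gave 2 for PDGF-AA + 3G3 against control IgG in Hec-1A. Leaving out single arrays gave 0 to 3 for each of those Hec-1A comparisons, 0 to 2 for the difference in PDGF-AA against control IgG and 0 to 3 for that in PDGF-AA + 3G3 against control IgG. The 3 Hec-1A calls without Hec-1A control IgG replicate 2 were HSD17B4, HSD17B8 and HSD17B12, and the cause was not tested. Without Hec-1A control IgG replicate 1, 0 members passed.

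Counts over all probes moved as follows. The lines under PDGF-AA and PDGF-AA + 3G3 (8980 and 9174 probes) gave 5778 and 5728 without normalization. For PDGF-AA + 3G3 against control IgG in Hec-1A (1 probe), the count was 0 without normalization, with scaling to a common median, with normexp at offset 16 or 50, with the replicate block and with Hec-1A alone, 928 with the 75th percentile filter, 257 with trended robust moderation, 3755 with array weights and 0 to 3889 with arrays left out. For PDGF-AA against control IgG in Hec-1A (0 probes) it was 4701 with array weights and 0 to 3684 with arrays left out, the highest without Hec-1A control IgG replicate 2. For PDGF-AA against control IgG in RL95-2 (2 probes) it was 0 without normalization, with the replicate block or RL95-2 alone, 1 with common median scaling or normexp at offset 16, 4 with trended moderation, 5 with array weights and 0 to 4 with arrays left out. For PDGF-AA + 3G3 against PDGF-AA in RL95-2 (1 probe) it was 0 without normalization, with the replicate block or RL95-2 alone, and 0 to 2 with arrays left out. For PDGF-AA + 3G3 against control IgG in RL95-2 (0 probes) it was 37 with array weights and 0 to 25 with arrays left out. The comparisons of the lines' responses gave 1 probe for PDGF-AA against control IgG, and 0 both for PDGF-AA + 3G3 against PDGF-AA and, as the third, against control IgG. The first was 0 without normalization or with the replicate block, 2646 with array weights and 1 to 2308 with arrays left out. The second was 1 with common median scaling or array weights and 0 to 1 with arrays left out, and the third was 4291 with array weights and 0 to 3278 with arrays left out. The replicate numbers gave no sign of pairing: same-numbered samples deviated with correlations of -0.496 to 0.15 in Hec-1A and -0.69 to 0.319 in RL95-2. For differently numbered samples these were -0.456 to 0.537 and -0.452 to 0.618. Deviations from means of 3 arrays cannot settle whether the samples were paired. With 3 arrays in a group, the median half-width of 0.162 is that of a 95% interval without adjustment, and the adjusted test over all probes asks for more. HSD17B2 in RL95-2 differed by 0.33 ± 0.06 (SE) between PDGF-AA + 3G3 and control IgG, with a limma adjusted p of 0.289.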

Other observations

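Genes of the pathway of NRF2, a transcription factor known to induce AKR1C and AKR1B10, did not share a direction between the lines under control IgG. Of 18 tested, 7 were higher and 5 lower in Hec-1A, with a median difference of 0.12, against 23% and 23.2% of all genes tested. Beside target genes, the list holds NFE2L2, the gene of NRF2, and KEAP1, its repressor. KEAP1, at -0.62 (limma adjusted p = 0.000557), is among the 5 lower genes, and NFE2L2 did not pass. ME1, which makes NADPH from malate, averaged 10.68 ± 0.45 in Hec-1A and 6.54 ± 0.01 in RL95-2, at least 16.5-fold higher (limma adjusted p = 7.58e-13). TXNRD1, a thioredoxin reductase, was higher by 2.26 ± 0.14 (SE), whereas NQO1 averaged 11.91 in Hec-1A and 12.88 in RL95-2, a difference of -0.97 ± 0.07. HMOX1, which degrades heme, averaged 7.07 in Hec-1A and 8.36 in RL95-2, a difference of -1.30 ± 0.08. Without Hec-1A control IgG replicate 1 the counts were 6 higher and 6 lower.

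Among 9 tested genes of the polyol pathway and aldehyde dehydrogenases, 4 were higher and 3 lower in Hec-1A. ALDH1A1, which oxidises retinal, averaged 8.38 ± 0.32 in Hec-1A and 6.45 ± 0.09 in RL95-2, at least 3.35-fold higher (limma adjusted p = 2.97e-08), and ALDH2, the mitochondrial acetaldehyde dehydrogenase, was at least 2.62-fold higher. ALDH1A3, which acts on the same retinal substrate, averaged 9.85 ± 0.31 in Hec-1A and 11.04 ± 0.04 in RL95-2, a difference of -1.19 ± 0.12. ALDH7A1, an enzyme of lysine breakdown, differed by -0.88 ± 0.07. These 4 differences also passed under PDGF-AA and under PDGF-AA + 3G3.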
